A study of Homo sapiens with 14 samples.

Results

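The developmental homeobox genes outside the HOX clusters were examined in TC-32, an established Ewing sarcoma cell line. The set was a named list of 49 genes: LHX1 to LHX6, LHX8 and LHX9; PAX1 to PAX9; SIX2 to SIX6; DLX1 to DLX6; NKX2-1, NKX2-3, NKX2-4, NKX2-5, NKX2-8, NKX3-2, NKX6-1 and NKX6-2; IRX1 to IRX6; OTX1 and OTX2; EN1 and EN2; MSX1 and MSX2; and GBX2. All 49 were found among the 19962 protein-coding genes of GENCODE release 44 on the autosomes and X of hg38. Membership goes by gene name and uses no measured value, although the list was drawn up with earlier results of these data known.

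CUT&RUN, in which an antibody directs a nuclease to cut out the DNA beside its target, was carried out on untreated, wild-type TC-32 cells in 14 libraries. An antibody to FLI1 was used in 4 libraries, 2 in a set called A and 2 in a set called B, and the labels do not say how the sets differ. H3K27ac was mapped in 2 libraries of set A, and H3K9me3 and H3K27me3 in 2 libraries each of set B. The 4 IgG libraries, 2 in each set, served as controls for peak calling. No group carried a knockdown or a drug, so each value is a state of the one cell line and not a response. The deposited values are 10 lists of peaks, each called on 1 library against its IgG library, and nothing says that the replicates came from separate cultures.

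Homeobox genes encode transcription factors that set the identity of body regions and cell types in the embryo. Most are silent outside the lineage they specify, and in many cell types they are held under the Polycomb complexes, which deposit H3K27me3 across broad stretches of CpG-rich DNA. H3K27ac marks active promoters and enhancers, and H3K9me3 marks heterochromatin. EWSR1::FLI1, the fusion protein that drives Ewing sarcoma, keeps the DNA-binding domain of FLI1, an ETS factor that reads GGAA, and can open chromatin at long runs of GGAA repeats. The FLI1 antibody's targets are called FLI1 peaks here. Expression was not measured.

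A gene start was taken as having a mark when every library of that antibody had a peak within 1 kb of it. The gene window is the gene body with 10 kb either side. The fold of a peak is the authors' ratio of signal over the IgG library, and it depends on the library's depth. The lists held 29339 to 40590 FLI1 regions, 10219 and 17366 for H3K27ac, 36687 and 21770 for H3K9me3, and 21461 and 16667 for H3K27me3. They give no read totals, so depth is unknown, and a gene without a peak was one where none was detected. The established fusion targets NR0B1 and CCND1 had FLI1 peaks in their windows in every library, 5 to 7 and 6 to 16 of them.

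The 49 genes fell mostly into 2 groups at their starts. H3K27me3 was present in both libraries at 24 of 49 starts (49%), where 9.48% of all protein-coding starts had it. FLI1 was present in all 4 libraries at 14 of 49 (28.6%), against 33.8% of all starts. No gene was in both groups, and among all genes 26 of 19962 (0.13%) were. Only 1 of 49 (2.04%) had H3K27ac at the start in both libraries, against 11.3% of all starts, and 1 of 49 (2.04%) had H3K9me3, against 1.39%. The other 11 genes had neither FLI1 in all 4 libraries nor H3K27me3 in both. With peaks of a −log10 q of at least 5 alone, where q is the caller's false discovery rate, H3K27me3 was at 14 starts (28.6%, against 3.81% of all) and FLI1 at 12 (24.5%, against 30.8%). H3K27ac and H3K9me3 were then at 0 of the 49, where their shares over all genes were 2.62% and 0.321%. Without H3K27ac replicate 1, H3K27ac was at 3 starts, and without H3K9me3 replicate 2, H3K9me3 was at 4.

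In single libraries, 26 and 25 of the 49 starts had an H3K27me3 peak, at 53.1% and 51.0%, where all genes stood at 11.5% and 9.8%. FLI1 peaks were at 15 starts in each set A library and at 17 in each set B library. All genes lay above the homeobox genes in all 4 FLI1 libraries, at 40.4% to 49.7% against 30.6% to 34.7%. H3K27ac was at 1 and 3 of the 49 starts (2.04% and 6.12%), where all genes stood at 14.6% and 19.6%. H3K9me3 was at 4 and 1 (8.16% and 2.04%), where all genes stood at 2.6% and 1.53%. The difference from all genes thus had the same direction in both libraries of H3K27me3 and of H3K27ac and in all 4 of FLI1. For H3K9me3, replicate 2 had 1 gene and lay near the share of all genes.

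**Figure D1:**
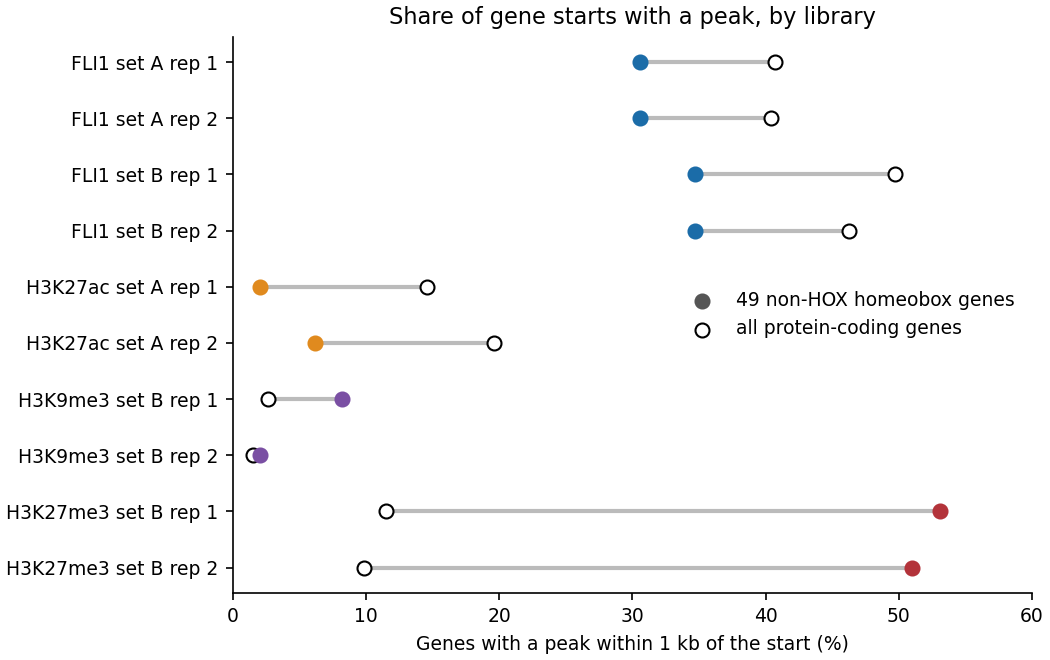
Percent of gene starts with a peak within 1 kb in each of the 10 libraries, for the 49 homeobox genes (filled points, coloured by antibody) and all protein-coding genes (open points), with a grey line joining them. The filled points lie far to the right for H3K27me3 (53.1% and 51.0%) and to the left for FLI1 (30.6% to 34.7%) and H3K27ac (2.04% and 6.12%).

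In the gene windows, H3K27me3, FLI1 and H3K27ac differed from all genes in the same direction as at the starts. H3K9me3 was below all genes in the windows. At the starts it rested on 1 gene, near the share of all genes, and on 0 against 0.321% with the stricter peaks. Window length follows gene length, and the shares were not adjusted for it. H3K27me3 was in the windows of 30 genes (61.2%), against 17.6% of all genes. FLI1 was in 19 windows (38.8%), against 56.3%. H3K27ac was in 7 windows (14.3%), against 28.3%, and H3K9me3 in 5 (10.2%), against 25.3%. With a −log10 q of at least 5 the counts were 15 for H3K27me3, 2 for H3K27ac and 0 for H3K9me3. The shares over all genes were not computed for these stricter window counts. Without H3K9me3 replicate 2, H3K9me3 was in 13 windows (26.5%, against 34.2% of all genes). Over the gene body alone FLI1 was in 12, which was not counted over all genes. Every one of the 49 windows held a peak of at least 1 list, and 6 genes (PAX5, SIX3, SIX4, NKX2-3, NKX2-5 and OTX1) had none within 1 kb of the start. The same shares over all genes were not computed, and FLI1 set B replicate 1 alone had a peak in 70.9% of all windows.

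**Figure D2:**
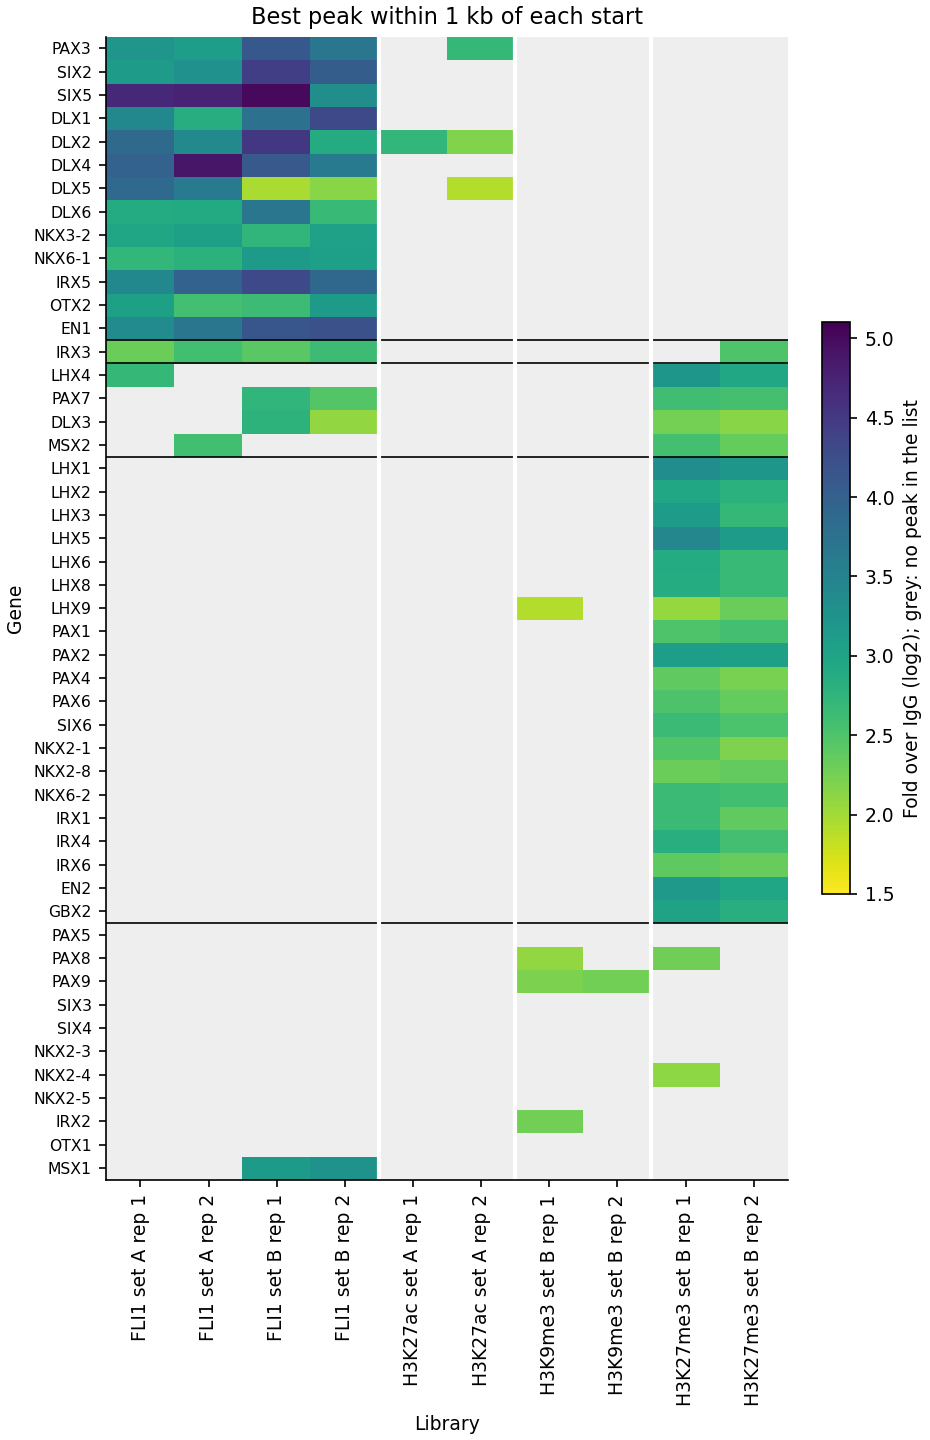
Best peak within 1 kb of the start for each gene (rows) and library (columns), as the log2 of the authors' fold over IgG, with grey where the list has no peak. Black lines separate, from the top, 13 genes with FLI1 in all 4 libraries, IRX3 with FLI1 in all 4 and H3K27me3 in 1, 4 genes with H3K27me3 in both and FLI1 in some, 20 genes with H3K27me3 in both and no FLI1, and 11 genes with neither in full.

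The families were split unevenly between the groups. All 8 LHX genes, which encode LIM-homeodomain factors that specify neurons and limb and pituitary tissue, had H3K27me3 at the start in both libraries, and none had FLI1 there in all 4. The DLX genes, regulators of forebrain interneurons, branchial arches and bone, showed the reverse. Of the 6, 5 had FLI1 at the start in all 4 libraries, and DLX3 alone had H3K27me3 in both. Of the 9 PAX genes, 5 had H3K27me3 and PAX3 had FLI1. Of SIX2 to SIX6, SIX2 and SIX5 had FLI1 and SIX6 had H3K27me3. The NKX genes divided into 3 with H3K27me3, 2 with FLI1 and 3 with neither, and the IRX genes into 3, 2 and 1. EN1 had FLI1 and its paralog EN2 had H3K27me3. With 1 to 9 genes in a family, these counts are descriptions.

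H3K27me3 covered a large part of many of these genes. The mean over both libraries of the percent of the window inside peaks had a median of 12.2% over the 49 genes, with 12.4% in replicate 1 and 10.0% in replicate 2, where the median of all genes was 0%. It was 0% with peaks of a −log10 q of at least 5 alone, and 3.49% with 50 kb either side of the gene in place of 10 kb. At least 25% of the window was covered in 20 of 49 genes (40.8%) and in 620 of 19962 (3.11%). The family median was 48.2% for LHX and 0% for DLX. Covered percent moves with how much each library called, and replicate 1 called 48.96 Mb and replicate 2 31.4 Mb.

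IRX4, a ventricle-specific factor of the heart, was covered over 100% and 94.5% of its window in replicates 1 and 2, which ranked 7th among the 19962 genes by the mean. EN2, a factor of the midbrain and hindbrain boundary, was covered over 96.2% and 93.1% (rank 10). LHX2, needed for the eye and cortex, was covered over 83.9% and 63.1% (rank 45). These were the most fully covered of the set.

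GBX2, which positions the hindbrain border, was covered over 73.4% and 67.9%. PAX2, a kidney, eye and midbrain factor, was covered over 76.7% and 64.0%. LHX5, a forebrain and spinal cord factor, was covered over 69.7% and 66.3%. In each of these 3 genes replicate 1 was the higher.

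LHX1, required for head and kidney formation, was covered over 67.6% and 63.4%. IRX1 was covered over 72.3% and 55.2%. LHX6, a factor of cortical interneurons, was covered over 61.2% and 48.9%. NKX2-1, the thyroid, lung and ventral forebrain factor, was covered over 56.3% and 29.5%, and was the gene of these 10 in which the libraries differed most. At the other end, 17 of the 49 windows held no H3K27me3 peak in either library, so that a lowest 5 cannot be singled out. They were PAX3, PAX9, SIX2, SIX4, SIX5, DLX1, DLX2, DLX4, DLX5, DLX6, NKX3-2, NKX6-1, IRX5, OTX1, OTX2, EN1 and MSX1. All genes had no such peak in 78.1% of windows.

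**Figure D3:**
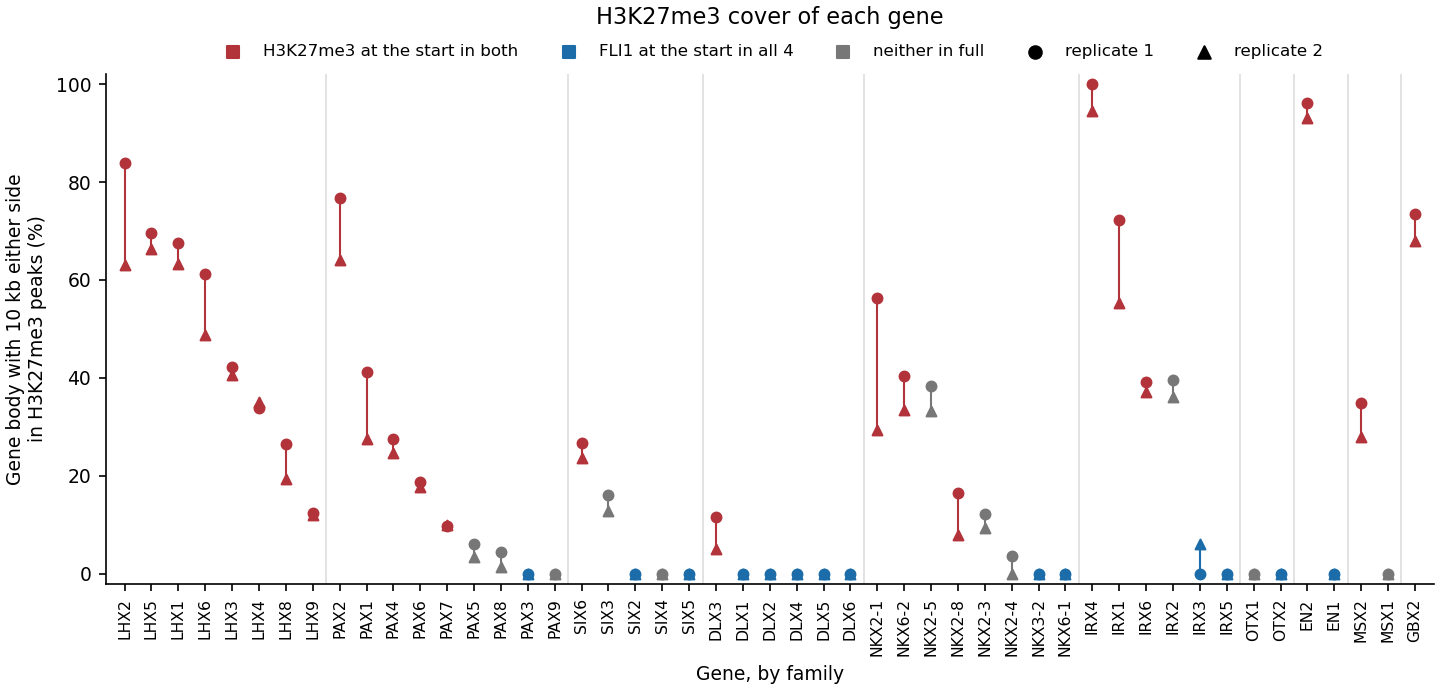
Percent of the gene body with 10 kb either side that lies in H3K27me3 peaks, for each gene by family, with replicate 1 as a circle and replicate 2 as a triangle joined by a line. Red genes have H3K27me3 at the start in both libraries, blue genes FLI1 at the start in all 4, and grey genes neither in full; IRX4 and EN2 lie above 90%, and of the blue genes only IRX3 leaves 0%, in replicate 2.

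The H3K27me3 peaks at the starts were wide. Their median width was 9956 bp at the 26 homeobox starts with one in replicate 1 and 6263 bp at the 25 in replicate 2. At all protein-coding starts with a peak the medians were 3438 and 2797 bp. The HOX genes had wider start peaks still, with medians of 10570.5 bp at 12 starts and 9270 bp at 11. Of the 11 HOX genes with a peak at the start in both libraries, all but HOXD1 lie in the HOXA cluster. A wide peak there can count at several starts. The peak at PAX2 spanned 42.0 kb in replicate 1 and 27.6 kb in replicate 2. That at IRX4 spanned 41.3 and 19.4 kb, that at EN2 36.6 and 27 kb, and that at LHX2 31.8 and 29.5 kb. Of the 24 genes with a peak in both libraries, DLX3 had the narrowest in replicate 1, at 2.26 kb, and NKX2-8 in replicate 2, at 0.2 kb.

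By fold, LHX5 and LHX1 stood at the top. The LHX5 peak had a fold of 10.9 in replicate 1, the 5th highest of 21461 regions in that list, and 8.65 in replicate 2, the 11th highest of 16667. The LHX1 peak had folds of 10.1 and 9.16, ranking 10th and 5th. The highest fold at any protein-coding start was the LHX5 value in replicate 1 and the LHX1 value in replicate 2. LHX4 had 9.19 and 7.76, EN2 8.89 and 7.81, LHX3 8.73 and 6.52, and PAX2 8.57 and 8.34, in the order of replicate 1. In replicate 2 PAX2 was the highest of these 4 and LHX3 the lowest. Homeobox starts gave 6 of the 100 highest folds of the list in replicate 1 and 5 in replicate 2. How many of these lay at other genes was not counted. The median fold of the start peaks was 6.25 and 5.94 in replicates 1 and 2, and for HOX genes 6.88 and 6.34. LHX9 had the weakest peak in replicate 1, at 4.22, and DLX3 in replicate 2, at 4.4.

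Broad H3K27me3 is known to follow CpG-rich DNA, and the starts of these genes were richer in CpG than the median start. The ratio of CpG dinucleotides observed to those expected from the base composition, over 1 kb either side of the start, had a median of 0.716 over the 49 genes and 0.614 over all genes. At least 0.6 was reached by 38 of 49 (77.6%) and by 52.1% of all genes. The ratio did not separate the groups. Its median was 0.696 for the 24 genes with H3K27me3 (range 0.06 to 1.06) and 0.775 for the 14 with FLI1 (range 0.58 to 0.88). EN2 had the highest ratio of the 49 and PAX4, a factor of pancreatic beta cells, the lowest, and both were marked by H3K27me3. Of the 49 genes, 35 had an entry in the RefSeq promoter table for hg38. The 250 bases before the RefSeq start are shown for 3 genes to let the CpG content be seen, with CG in capitals. EN2 (chr7:155457879-155458128, plus strand) held 45 CG, PAX4 (chr7:127618143-127618392, minus strand) 1, and DLX2 (chr2:172102901-172103150, minus strand) 25. The median over all 15316 promoters was 17 and over the 35 homeobox promoters 22.
EN2 upstream: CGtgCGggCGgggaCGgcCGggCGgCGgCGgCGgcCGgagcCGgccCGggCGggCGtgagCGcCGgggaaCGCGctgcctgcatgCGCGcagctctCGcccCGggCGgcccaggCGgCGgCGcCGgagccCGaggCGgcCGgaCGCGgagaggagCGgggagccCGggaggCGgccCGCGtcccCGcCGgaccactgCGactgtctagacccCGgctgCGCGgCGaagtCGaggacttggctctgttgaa
PAX4 upstream: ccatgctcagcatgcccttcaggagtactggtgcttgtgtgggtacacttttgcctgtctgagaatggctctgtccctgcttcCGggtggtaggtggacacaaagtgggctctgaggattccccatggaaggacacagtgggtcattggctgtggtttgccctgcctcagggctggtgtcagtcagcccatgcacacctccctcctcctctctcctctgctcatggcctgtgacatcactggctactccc
DLX2 upstream: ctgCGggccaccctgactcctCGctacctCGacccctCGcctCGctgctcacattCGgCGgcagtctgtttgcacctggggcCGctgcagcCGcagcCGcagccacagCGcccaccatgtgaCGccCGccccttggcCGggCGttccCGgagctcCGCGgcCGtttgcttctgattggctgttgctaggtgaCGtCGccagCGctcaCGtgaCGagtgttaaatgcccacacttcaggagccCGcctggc

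H3K27me3 at EN2 and PAX4 thus lay over very unlike sequence. PAX4 had H3K27me3 folds of 5.20 and 4.67 at the start, and its peaks were 7.51 and 4.18 kb wide. EN2 and DLX2 are both rich in CG, and DLX2 had no H3K27me3 peak in its window in either library.

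FLI1 was at the start in all 4 libraries of 14 genes, and folds are given in the order set A replicates 1 and 2, then set B replicates 1 and 2. SIX5, which lies beside the myotonic dystrophy gene DMPK, had 25.8, 26.8, 32.2 and 10.0. The summit of its region lay 1234 bp upstream of the start, in an exon of DMPK. DLX4 had 15.6, 29.5, 17.1 and 12.1. IRX5, a factor of retina, heart and limb, had 10.7, 15.7, 19.7 and 15.0, and the summit of its region lay 1804 bp upstream, within 1 kb of the start of the long non-coding RNA CRNDE. These 3 genes had a fold of at least 10 in every library.

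EN1, a factor of the midbrain and the limb, had 10.3, 12.9, 17.5 and 18.5 and also reached 10 throughout. SIX2, which maintains kidney progenitors, had 8.62, 9.69, 21.5 and 16.5. PAX3, a neural crest and muscle progenitor factor, had 9.37, 8.55, 17.2 and 12.8. In EN1, SIX2 and PAX3 both set B values were above both set A values, as they were in DLX1 and NKX6-1 below. Folds were higher in the set B lists as a whole, with medians of 8.20 and 8.10 against 6.88 and 6.46 in set A. By percentile of fold within its list, NKX6-1 did not separate the sets, with 47.1, 54.6, 56.6 and 53.3.

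DLX1 had 10.7, 7.27, 13.4 and 19.7. DLX2 had 14.5, 10.5, 23 and 7.40. DLX5, a regulator of bone formation, had 14.6, 12.2, 3.87 and 4.41, the reverse order, with both set A values above both set B values. DLX6 had 7.40, 7.44, 12.9 and 6.39, without separation of the sets. The folds of different sets were called against different IgG libraries, so the set and the control cannot be told apart.

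The remaining 4 stayed below 9 in every library. NKX3-2, a factor of cartilage, had 7.81, 8.31, 6.62 and 8.25. NKX6-1, a factor of beta cells and motor neurons, had 6.58, 6.92, 8.82 and 8.40. OTX2, which specifies forebrain and midbrain, had 8.34, 5.94, 6.18 and 8.81 at the start itself. These OTX2 peaks did not share one place. The region with the set A replicate 2 peak was called in set A alone, and that with the set B replicate 1 peak in that library alone. The OTX2 regions in all 4 libraries had their strongest summits 1954 bp downstream and 9783 bp upstream of the start. IRX3 had 4.95, 6.0, 5.35 and 6.19 and was the one gene of the 14 with H3K27me3 at the start, with a fold of 5.63 in replicate 2 and no peak in replicate 1. In the other 13 genes the whole window was without an H3K27me3 peak, which is 92.9% of 14, and the share was 93.1% among all 6740 genes with FLI1 at the start in all 4 libraries.

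**Figure D4:**
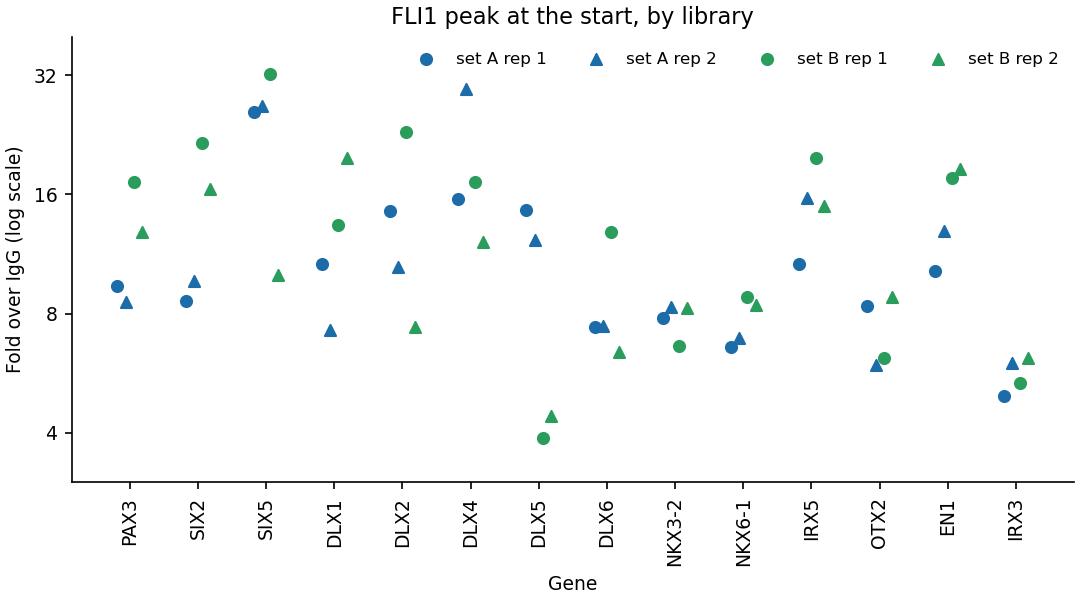
Authors' fold over IgG (log axis) of the FLI1 peak within 1 kb of the start, for the 14 genes with one in all 4 FLI1 libraries, with set A in blue and set B in green. SIX5 reaches 32.2, IRX3 stays between 4.95 and 6.19, and DLX5 lies lower in set B than in set A.

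FLI1 at these starts seldom came with H3K27ac. DLX2 was the one gene with both, with H3K27ac folds of 6.56 and 4.53 in replicates 1 and 2. The strongest summit of that H3K27ac region lay 1523 bp into the gene, beyond 1 kb of the start. PAX3 had H3K27ac at the start in replicate 2 alone (6.48), and DLX5 likewise (3.79). H3K27ac in both libraries was thus found at 1 of the 14 FLI1 starts (7.14%), and at 1610 of the 6740 such starts over all genes (23.9%).

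The sequence under the FLI1 summits at starts held no long GGAA repeats. Of 35 FLI1 regions present in all 4 libraries over the windows, 11 had their summit within 1 kb of a homeobox start, and within 250 bp of the summit none of these held a run of more than 2 GGAA units. The 101 bases around the strongest summit are shown for 3 starts, with GGAA and its reverse complement TTCC in capitals, for NKX3-2 (chr4:13544866-13544966), SIX2 (chr2:45009826-45009926) and EN1 (chr2:118847930-118848030), each on the plus strand of hg38 and between genes. NKX3-2 and SIX2 held 3 such sites each. EN1 held none in these bases.
NKX3-2 summit: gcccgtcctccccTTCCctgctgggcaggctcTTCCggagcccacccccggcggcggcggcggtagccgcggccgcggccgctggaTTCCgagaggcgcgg
SIX2 summit: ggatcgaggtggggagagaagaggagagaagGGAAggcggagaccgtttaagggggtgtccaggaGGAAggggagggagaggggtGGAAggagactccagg
EN1 summit: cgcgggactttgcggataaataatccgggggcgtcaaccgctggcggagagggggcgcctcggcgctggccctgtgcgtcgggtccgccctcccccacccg

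Of the 11 start regions, 6 had a GGAA or TTCC within 50 bp of the summit. Among the 24 regions in all 4 libraries with summits over 1 kb from a start, 19 did. The share in other DNA was not computed, and letters as short as these are common. In the RefSeq promoters (300 bases, from 250 before to 50 after the start), the ETS motif CCGGAAG on either strand was in 2 of the 35 homeobox promoters (5.71%), those of NKX2-8 and PAX4, and in 14.4% of 15316 promoters. It was in none of the 8 FLI1-bound homeobox genes with an entry, but lay within 50 bp of the summit in 1 of the 11 start regions, that of NKX3-2 shown above, whose summit is outside the promoter window. The motif contains GGAA, and a window without it says only that these letters are not there.

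The 2 strongest FLI1 regions of the set were at PAX5 (99.6) and OTX2 (97.7), by mean percentile of fold within the lists. Their strongest summits lay away from starts, each within 250 bp of a GGAA repeat. The next, at SIX5 (88.2), DLX4 (86.5), IRX5 (85.9) and EN1 (84.0), held no such repeat, and the PAX7 repeat stood at 60.4. Across the windows, the 4 lists merged into 110 FLI1 regions, of which 35 (31.8%) were in all 4 libraries and 42 (38.2%) in 1. Those in all 4 lay in the windows of 19 genes. By annotation at the summit, 12 were in introns, 12 between genes, 7 in exons and 4 in long non-coding RNA genes. Runs of at least 4 GGAA units lay within 250 bp of the strongest summit in 3 of the 35, at PAX5, OTX2 and PAX7. All 3 were more than 1 kb from a start.

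The longest GGAA run in each of the 49 windows was found on both strands of hg38. It had at least 6 units in 6 genes, and these are shown with 20 bases either side and the run in capitals. They lay at chr1:18667374-18667469 (PAX7, 14 units, intron), chr9:36929217-36929308 (PAX5, 13 units, intron), chr16:55325462-55325549 (IRX6, 12 units, intron), chr2:222265630-222265709 (PAX3, 10 units, intron), chr14:56826221-56826300 (OTX2, 10 units, upstream, within OTX2-AS1) and chr10:100839782-100839853 (PAX2, 8 units, between genes).
PAX7 run: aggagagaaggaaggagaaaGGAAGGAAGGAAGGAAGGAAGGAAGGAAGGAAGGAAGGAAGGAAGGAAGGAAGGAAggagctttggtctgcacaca
PAX5 run: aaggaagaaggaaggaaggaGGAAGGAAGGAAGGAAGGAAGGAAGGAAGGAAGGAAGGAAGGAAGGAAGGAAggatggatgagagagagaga
IRX6 run: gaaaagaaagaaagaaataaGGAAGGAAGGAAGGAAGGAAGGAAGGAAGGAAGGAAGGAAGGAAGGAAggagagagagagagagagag
PAX3 run: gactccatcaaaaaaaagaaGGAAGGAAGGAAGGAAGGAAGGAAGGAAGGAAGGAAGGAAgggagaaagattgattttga
OTX2 run: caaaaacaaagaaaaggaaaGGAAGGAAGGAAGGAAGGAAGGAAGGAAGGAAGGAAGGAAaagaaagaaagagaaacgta
PAX2 run: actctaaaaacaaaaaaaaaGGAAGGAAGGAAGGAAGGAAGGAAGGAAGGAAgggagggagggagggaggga

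PAX5, the factor of B cell commitment, had no FLI1 peak at its start and the strongest FLI1 region of the set in its body. The region at chr9:36922232-36932871 had highest folds of 213, 276, 44.5 and 53.7. Within 250 bp of the repeat the folds were 213, 276, 41.0 and 35.4. In both set B libraries the peak of highest fold thus lay elsewhere in the region. Its strongest summit was 105214 bp downstream of the start. H3K27ac was called within it with a fold of 4.64 in replicate 1 and 3.89 in replicate 2, at places that did not overlap. H3K27me3 peaks covered 6.14% and 3.37% of the PAX5 window, near the start, and none reached the repeat.

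OTX2 had the second such region, at chr14:56817570-56828138, with folds of 62.5, 64.3, 29.5 and 27.9. The region runs from under 1 kb upstream of the start to the repeat and beyond. FLI1 peaks covered 44.3%, 45.8%, 20.5% and 16.9% of the OTX2 window, which ranked it 24th of 19962 genes by the mean. H3K27ac was called in both libraries at 4 places within the region, 2049, 4748, 5976 and 6750 bp upstream of the start, with folds of 3.78 to 6.56. None of them was within 1 kb of the start, so OTX2 does not count among the starts with H3K27ac. By H3K27ac cover of the window OTX2 ranked 57th of all genes.

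PAX7, the muscle stem cell factor, had folds of 14.9, 22.2, 9.43 and 3.86 at its run of 14 units, 36548 bp into the gene. The longest run thus had lower folds in every library than the shorter runs of PAX5 and OTX2. Beside the PAX3 run FLI1 peaks were called in set A alone, 94 and 40 bp away, with folds of 9.44 and 10.2, and the nearest set B peak was 24829 bp away.

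At the remaining runs FLI1 was not detected. The IRX6 run of 12 units lay inside H3K27me3 peaks in both libraries, and the nearest FLI1 peak was 144654, 144610, 43550 and 144968 bp away in the 4 libraries. The PAX2 run of 8 units lay outside all marks, and the nearest FLI1 peaks were 38540 to 50191 bp away. Of the 6 genes with long runs, 3 therefore had FLI1 there in all 4 libraries, 1 in set A and 2 in none.

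**Figure D5:**
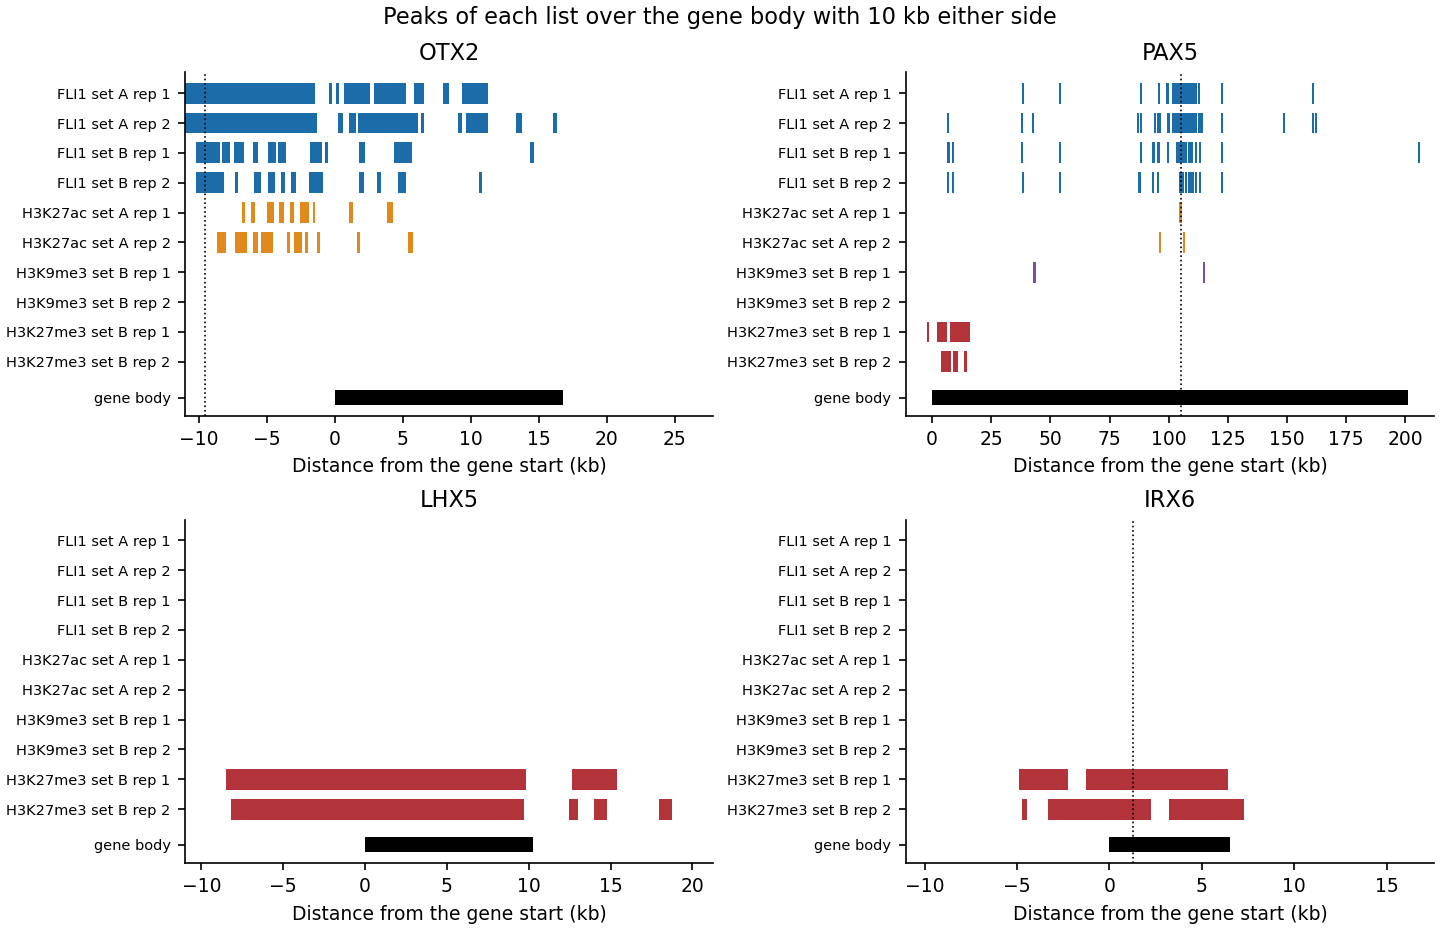
Peaks of the 10 lists over OTX2, PAX5, LHX5 and IRX6, against the distance from the gene start in kb (positive downstream), with the gene body in black and a dotted line at a GGAA run of at least 6 units. Peaks narrower than 0.4% of the panel are drawn at that width. FLI1 peaks surround the runs at OTX2 and PAX5, LHX5 has H3K27me3 across its body and no FLI1, and at IRX6 the run lies inside H3K27me3.

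H3K27ac peaks of both libraries overlapped at 8 places, and these lay in the windows of 4 genes: LHX9, PAX3, DLX2 and OTX2. FLI1 was called over 5 of the 8 in all 4 libraries and over 7 in at least 1. The OTX2 places described above are among the 8. The same share over all H3K27ac regions was not computed, so these counts are descriptions. The exception was 9551 bp upstream of LHX9, with H3K27ac folds of 6.08 and 4.85 and no overlapping FLI1 peak. A FLI1 peak of set B replicate 1 alone (fold 12.0) lay next to it, with its summit 9161 bp upstream. That summit was in an exon of another gene, C1orf53, and within 1 kb of the C1orf53 start. PAX3 had 2 such places, 825 and 5003 bp into the gene by the summits of replicate 2. At the first, the replicate 1 summit lay 1334 bp in, so that library had no peak within 1 kb of the start. Of the 7 genes with H3K27ac in the window of both libraries, PAX5, DLX5 and EN1 had the peaks of the libraries at different places.

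Of the 24 genes with H3K27me3 at the start, 4 (LHX4, PAX7, DLX3 and MSX2) also had a FLI1 peak there in some library. That is 8.16% of the 49, against 1.03% of all genes, where H3K27me3 itself is rarer. As a share of the starts with H3K27me3 it was 16.7%, against 10.9% over all genes. Their FLI1 folds ran from 4.26 to 6.81, and none of the FLI1 peaks was in both sets. LHX4 had a FLI1 fold of 6.50 in set A replicate 1, beside H3K27me3 folds of 9.19 and 7.76. MSX2, a skull and limb factor, had a FLI1 fold of 6.0 in set A replicate 2, beside 5.95 and 5.09.

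PAX7 had FLI1 folds of 6.62 and 5.51 in set B alone, beside H3K27me3 folds of 6.07 and 5.93. DLX3, a factor of skin and placenta, had 6.81 and 4.26 in set B alone, beside 4.77 and 4.4. Elsewhere in the window, LHX3, PAX7 and GBX2 had FLI1 in all 4 libraries while their starts had H3K27me3 (3 of 24, 12.5%), and the share over all genes with H3K27me3 at the start was 25%. The GBX2 region lay 10047 bp upstream with folds of 11.3, 13.6, 12.8 and 8.84, and overlapped H3K27me3 in both libraries. The LHX3 region lay 16567 bp downstream of the start with folds of 10.4, 6.79, 12.5 and 11.4, and overlapped none.

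H3K9me3 was rare. PAX9, a factor of teeth and the foregut, was the one gene with it at the start in both libraries, with folds of 4.64 and 4.80 and widths of 3618 and 3901 bp. A FLI1 region 4386 bp into PAX9 had folds of 9.85, 14.3, 14.5 and 14.4. H3K9me3 was also in the windows of OTX1, EN1, DLX5 and PAX3 in both libraries. It covered 17.9% and 8.31% of the OTX1 window, and OTX1 had no peak of FLI1, H3K27ac or H3K27me3 in its window in any library. EN1 was covered over 16.7% and 13.5%, in peaks on either side of the gene, while its start had FLI1. The H3K9me3 peaks of these 5 genes had folds up to 5.73 and −log10 q values up to 5.89.

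Of the 11 genes in neither group, IRX2, NKX2-5, SIX3, NKX2-3 and PAX5 had H3K27me3 in the window in both libraries and at the start in neither. PAX8, a thyroid and kidney factor, had it in the window in both, with a start peak in replicate 1 alone (4.87). With a start window of 2 kb, PAX8, NKX2-5 and IRX2 had H3K27me3 at the start in both libraries. IRX2 was covered over 39.7% and 36.2% and NKX2-5, the heart factor, over 38.4% and 33.3%. NKX2-4 had 1 peak at the start in replicate 1 (4.31). MSX1, a tooth and palate factor, had FLI1 at the start in set B alone, with folds of 8.80 and 9.50. SIX4 had FLI1 in the window in 2 libraries and no mark.

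Several of the genes are neighbours, and pairs of neighbours could share a state or differ. DLX1 and DLX2 are 18.2 kb apart and converge, and both had FLI1 at the start and no H3K27me3 peak between the starts. FLI1 covered 30.7%, 21.0%, 20.7% and 17.0% of the DLX1 window, and 33.5%, 30.1%, 22.2% and 19.3% of that of DLX2, ranking 78th and 48th of all genes. Their windows overlap, so some peaks count for both. DLX5 and DLX6, 19.4 kb apart, also both had FLI1.

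The third DLX pair differed. DLX4, with FLI1, and DLX3, with H3K27me3, are 26.6 kb apart, and H3K27me3 covered 8.48% and 4.73% of the DNA between their starts. On chromosome 16, IRX3 and IRX5 had FLI1 and are 644 kb apart, and IRX6, 393 kb beyond IRX5, had H3K27me3. On chromosome 5, IRX4 and IRX1 had H3K27me3 within 1 kb of the start and IRX2 between them did not. The nearest H3K27me3 peak to the IRX2 start was just outside that limit, 1134 and 1131 bp away in replicates 1 and 2. On chromosome 14, NKX2-1 and NKX2-8 had H3K27me3 at starts 61.5 kb apart, and PAX9, 75.0 kb from NKX2-8, had H3K9me3. SIX2, with FLI1, and SIX3, with neither at its start, are 67.8 kb apart. No H3K27me3 peak of either library spanned the starts of a pair. In 11 of the 49 genes another annotated gene starts within 1 kb, so a start peak there cannot be assigned to one gene; for NKX2-1 that gene is the coding SFTA3, and for the other 10, among them LHX1, LHX5, PAX3, DLX2, IRX4 and GBX2, it is a long non-coding RNA.

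The FLI1 lists of set A and set B were compared over the homeobox genes. Set A had 15 and 15 starts with a peak and set B 17 and 17, a difference of -2.0 genes. Over the windows the values were 21 and 22 against 26 and 25, a difference of -4.0 genes. An exact permutation test over the 4 libraries, two-sided, gave p = 0.333 for each, the smallest p that 2 against 2 libraries allow. All genes moved alike, with a peak at 40.7% and 40.4% of starts in the set A libraries, and at 49.7% and 46.3% in those of set B. Of the 110 FLI1 regions, 6 appeared in the set A pair alone and 7 in the set B pair alone.

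The HOX genes, given beside these as counts, had FLI1 at the start in 16 of 39 (41.0%), H3K27me3 in 11 (28.2%) and H3K27ac in 5 (12.8%). Genes for partners of the homeodomain proteins were taken as a list of 28. FLI1 was at the start in 15 of them (53.6%), H3K27me3 in 6 (21.4%), H3K27ac in 4 (14.3%) and H3K9me3 in 0. The 4 TLE genes, which encode corepressors, all had FLI1 at the start in all 4 libraries, and TLE1 also had H3K27me3 in both. Of the 9 genes for partners of LIM proteins, 6 had FLI1 (LDB1, SSBP2, SSBP4, LMO2, LMO3 and LMO4) and LMO1 had H3K27me3. Of the 6 EYA and DACH genes, whose products act with SIX2 and its relatives, EYA2, DACH1 and DACH2 had H3K27me3 and EYA3 had FLI1 and H3K27ac. Of the 9 PBX, MEIS and PKNOX genes, 4 had FLI1 (PBX2, PBX3, MEIS1 and MEIS2) and PKNOX2 had H3K27me3, over 27.8% of its window. At least 25% of the window was in H3K27me3 peaks in 12 of 39 HOX genes (30.8%) and in 1 of the 28 partners (3.57%).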

How the data were processed

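CUT&RUN peak lists of 10 antibody libraries from TC-32 cells were used. Per the names in the deposited lists, the authors called peaks library by library, after removing duplicates, with the like-numbered IgG library of the set as control, as narrow peaks for FLI1 and H3K27ac and broad peaks for H3K9me3 and H3K27me3. The submitters' processing notes name cutadapt 4.4, Bowtie2, Picard 2.17.11, MACS2 2.1.1 and hg38, without their roles. The deposited fold is the authors' ratio of a peak's signal over IgG. The deposited −log10 p and −log10 q values come from the same peak caller, with a lowest −log10 q of 2.00, and the deposited score is a scaled copy of the −log10 q. Read totals, spike-in counts and the IgG libraries were not analysed here.

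Overlapping peaks of a list were merged, keeping the most significant, on the 22 autosomes and X, whose lengths fit hg38. Genes and starts came from GENCODE release 44, and a peak counted with at least 1 shared base. A mark counted when every library of the antibody had a peak. Counts were set beside the same count over 19962 protein-coding genes, with no test. The FLI1 sets were compared with an exact permutation test over libraries. The overlap counting was tested on simulated data, and peak counts and covered bases were right in 300 of 300 windows. Named genes were those with FLI1, H3K27ac or H3K9me3 at the start, the 10 with the most H3K27me3 cover, those with both FLI1 and H3K27me3, neighbours, and those with GGAA runs of at least 6 units. Other genes were named to account for all 49. The members and the gene lists were chosen with earlier results of these data known. p-values measure the spread between these libraries, which may be technical. Promoter sequences are RefSeq's (hg38), and other sequences were read from hg38. Python 3.11.15 was used.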

Additional observations from a re-analysis of the deposited data

How the results depend on the processing

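Of 94 recomputed values for 12 results, 26 moved by over 1.5 times (counts) or beyond the spread of the libraries (cover), and 0 changed sign; the FLI1 set differences were judged by sign alone, and at starts ran from -5.0 genes (any protein-coding transcript start) to -1.0 (−log10 q of at least 5). With a −log10 q of at least 5, H3K27me3 was at 14 starts (28.6%, against 3.81% of all genes) and in 15 windows, median cover was 0%, H3K27ac was at 0 starts and in 2 windows, H3K9me3 at 0 starts and in 0 windows, and FLI1 at 12 starts without DLX5 and IRX3. Counting a peak in any library gave 3 starts and 11 windows with H3K27ac, 4 and 15 with H3K9me3, and 29 windows with FLI1. It also gave 5 starts with both FLI1 and H3K27me3 (10.2%, against 1.45% of all genes). Shares over all genes were not computed for the other counts in any library, the stricter window counts, other window sizes or transcript starts. A start window of 2 kb gave 3 starts with H3K27ac (PAX3 and OTX2 added), and any protein-coding transcript start gave 2 (PAX3 added). With the gene body alone, FLI1 was in 12 windows, H3K9me3 in 2, and median H3K27me3 cover was 10.2%. With 50 kb either side, H3K27ac was in 13, H3K9me3 in 17, and cover was 3.49%. Leaving out single libraries gave 1 to 3 starts with H3K27ac (3 without replicate 1), 1 to 4 starts and 7 to 13 windows with H3K9me3 (4 and 13 without replicate 2), 0 to 1 starts with both FLI1 and H3K27me3 (IRX3, without H3K27me3 replicate 1), and median cover of 10.0% to 12.4%. The cause was not tested. With a replicate block over same-numbered libraries, the set differences were the same -2.0 and -4.0 genes, with an exact permutation p of 0.5, the smallest it allows. The lists give no depth, so absence of a peak is a limit of detection, and fold and cover cannot be set against each other across antibodies.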
